A study of Mus musculus with 16 samples.

Results

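The genes described here are 38 mouse genes that microglia and macrophages are known to express when activated. They were chosen by name, with earlier results of these data known, and looked up on a whole-transcript array. Their counts set beside all genes therefore describe the list and do not test it. A gene was taken where a probe set carried its symbol and no other, and 37 of the 38 were found among 19938 genes read in this way, each with 1 probe set. Spp1, which encodes the secreted matrix protein osteopontin, was not found by this rule. RNA came from whole brain of male mice aged 8 weeks, measured on Affymetrix Mouse Gene 1.0 ST arrays, with 16 arrays in 4 groups of 4. C57BL/6 mice were either naive or had lived 24 h after permanent middle cerebral artery occlusion (pMCAO), a surgical model of ischaemic stroke. Mice labelled TNF knockout formed the other 2 groups, again naive or 24 h after pMCAO. The labels do not give the knockout allele or its background strain, and name no sham operation, so the effects of the occlusion and of the surgery around it cannot be told apart. They do not say whether each array is a separate animal, so the p-values measure the spread between these arrays.

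Microglia are the resident macrophages of the brain, and after an infarct they are joined by monocytes that enter from the blood. Surface receptors such as TREM2 and the activating Fc receptors signal through the adaptors TYROBP (DAP12) and FCER1G, whose ITAM motifs recruit the kinase SYK. Engulfed material then passes to the lysosome, where cathepsins digest it. Fewer cells of a type and less RNA per cell cannot be told apart in whole tissue. A rise in a gene here is therefore a rise in its share of brain RNA.

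Values are deposited log2 expression values, and a difference of 1 is a doubling. Each level belongs to its own probe set and is not set against the level of another gene. Differences are given with their standard error, from limma fitted to all genes and all 16 arrays, with Benjamini-Hochberg adjusted p-values. A gene was called when its adjusted p was under 0.05. Array medians ran from 6.01 to 6.05.

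Tnf itself, the targeted cytokine gene, went against the genotype label. Its probe set read 5.01, 5.72, 5.08 and 5.41 in naive C57BL/6 brain and 5.64, 5.28, 5.67 and 5.68 after stroke. On the arrays labelled TNF knockout it read 6.14, 6.46, 6.47 and 6.58 in naive brain and 6.75, 6.60, 6.99 and 6.88 after stroke. Every array with the knockout label thus lay above every C57BL/6 array, with a difference of 1.24 ± 0.14 after stroke (limma, adjusted p = 0.0001) and of 1.11 ± 0.14 in naive mice (0.00056). The sources used here do not say which exons the allele removes, so it is not known whether this probe set lies in a deleted part, and every genotype direction below refers to the label alone. Sample name prefixes also followed the label. All C57BL/6 arrays carry the prefix KL42, and the arrays labelled TNF knockout carry KL76 (naive arrays 1 to 3 and stroke array 1) or KL82 (naive array 4 and stroke arrays 2 to 4). Genotype label and prefix cannot be told apart in any comparison between genotypes.

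After stroke, 16 of the 37 genes were higher in C57BL/6 brain and 0 were lower (limma, adjusted p under 0.05). Of all genes tested, 1.34% were called higher and 0.336% lower. The median change of the 37 genes was 0.43, with a range from -0.24 to 1.86 and 33 genes above 0, where all genes had a median of -0.01 and 48.4% above 0. On the arrays labelled TNF knockout, 11 of the 37 genes were higher and 0 lower, against 0.537% of all genes called higher and 0.105% lower. Their median change was 0.23, from -0.21 to 2.18, with 29 genes above 0. The stroke arrays lay wholly above the naive arrays for 17 genes in C57BL/6 (5.03% of all genes) and for 15 genes under the knockout label (2.8% of all genes). All 11 genes called under the knockout label were among the 16 called in C57BL/6. The other 5, Ctsz, Ctss, Mpeg1, Ms4a6d and Plek, were called in C57BL/6 alone, and 21 genes were called in neither. Fitted on the C57BL/6 arrays alone, 11 of the 16 passed, and Fcer1g (adjusted p = 0.089), Ctsz (0.07), Ctss (0.089), Mpeg1 (0.092) and Ms4a6d (0.072) did not. Of all genes, 98 passed in that fit, against 334 with all arrays. Quantile normalization ended the knockout-label calls of Fcgr2b (adjusted p = 0.094), Lyz2 (0.099) and Slc15a3 (0.063).

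**Figure D1:**
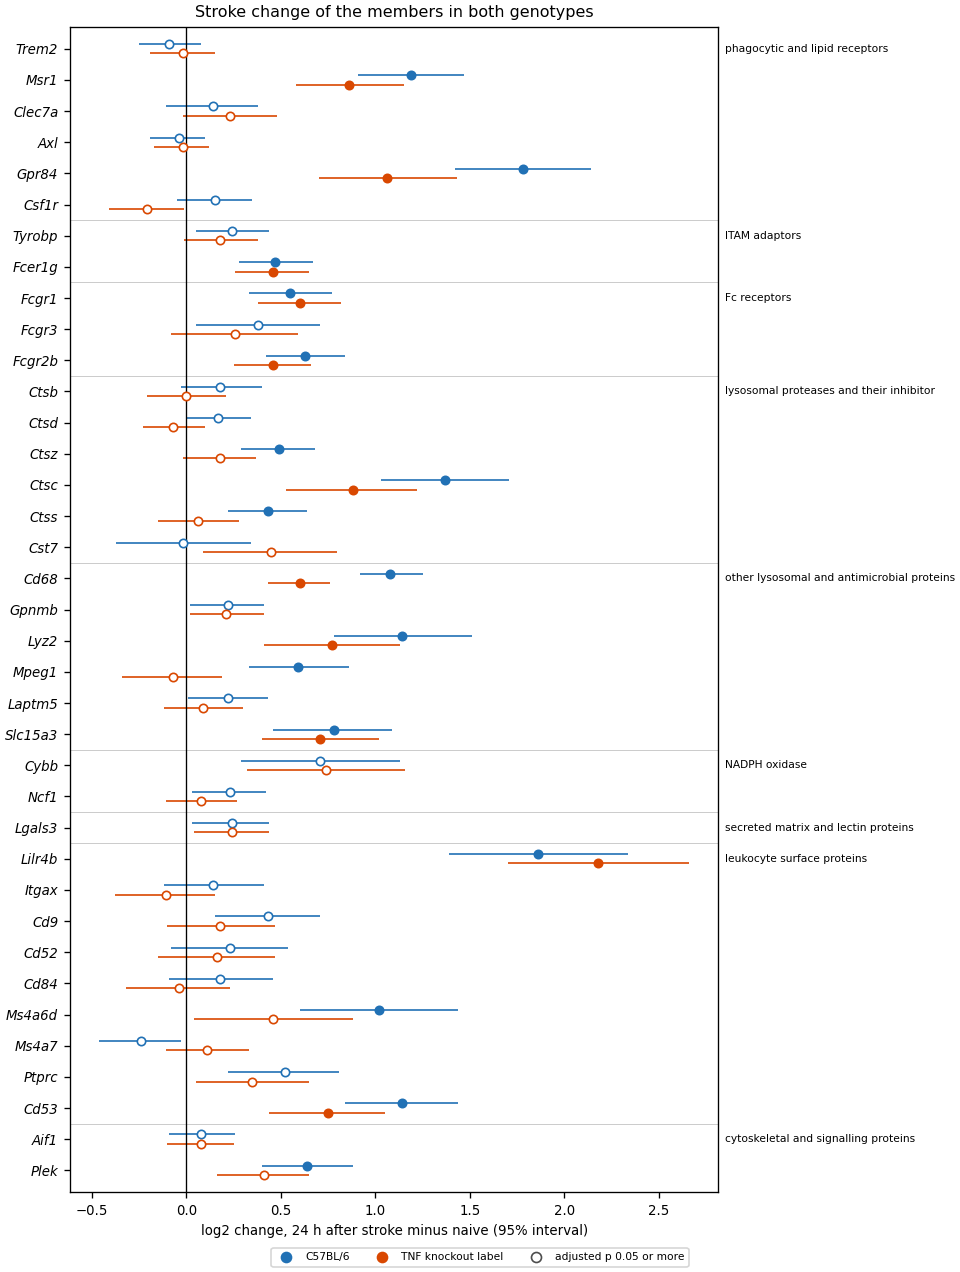
Change 24 h after pMCAO of the 37 genes, grouped by role, in C57BL/6 brain and in brain labelled TNF knockout (log2 difference, stroke minus naive, with its 95% interval, 4 arrays per group); filled points have an adjusted p under 0.05. Lilr4b, Gpr84 and Ctsc lie far to the right in both genotypes, while Trem2, Axl and Aif1 lie near 0.

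Lilr4b, Gpr84 and Ctsc had the largest mean stroke changes over the 2 genotypes, 2.02, 1.42 and 1.12 on the log2 scale. Their promoters are shown because these genes moved most. The sequences are from RefSeq (GRCm38.p6) and run from 250 bases before to 50 bases after the annotated start, 5′ to 3′ on the gene's strand. They lie at chr10:51480362-51480661 (plus strand) for Lilr4b, chr15:103310389-103310688 (minus strand) for Gpr84 and chr7:88277835-88278134 (plus strand) for Ctsc. The gene's own listed 5′ end is 103310670 for Gpr84 and 88278024 for Ctsc, so the start used for these windows lies inside the listed gene. Capitals mark matches on either strand of GAGGAA, the core that the myeloid factor PU.1 is known to bind.
Lilr4b: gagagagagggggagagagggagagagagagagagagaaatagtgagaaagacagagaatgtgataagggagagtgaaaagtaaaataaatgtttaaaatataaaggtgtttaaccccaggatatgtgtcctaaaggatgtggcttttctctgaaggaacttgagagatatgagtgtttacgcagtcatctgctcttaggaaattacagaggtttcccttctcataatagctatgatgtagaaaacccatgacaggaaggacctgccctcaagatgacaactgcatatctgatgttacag
Gpr84: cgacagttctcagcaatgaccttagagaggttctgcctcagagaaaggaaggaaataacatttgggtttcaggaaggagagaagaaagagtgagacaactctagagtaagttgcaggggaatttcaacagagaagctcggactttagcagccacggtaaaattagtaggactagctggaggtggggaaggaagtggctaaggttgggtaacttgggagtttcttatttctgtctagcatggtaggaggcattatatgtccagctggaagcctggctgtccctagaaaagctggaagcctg
Ctsc: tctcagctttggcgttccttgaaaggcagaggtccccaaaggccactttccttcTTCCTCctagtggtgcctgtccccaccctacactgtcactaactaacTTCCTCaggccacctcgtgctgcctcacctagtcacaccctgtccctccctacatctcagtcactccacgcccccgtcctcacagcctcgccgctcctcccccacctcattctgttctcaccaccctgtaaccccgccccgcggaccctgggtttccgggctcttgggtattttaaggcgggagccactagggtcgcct
The Ctsc window holds 2 matches, both on the opposite strand and both before the start. The Lilr4b and Gpr84 windows hold 0. Msr1 follows by mean change. Promoters were listed for 30 of the 37 genes, 34 in all, and 18 of the 34 (52.9%) held GAGGAA on either strand, against 28.3% of 32851 promoters of this length. The longer word GAGGAAG, which contains the first, was in 9 of the 34 (26.5%) and in 13.6% of all. A match is a description of letters and not of binding.

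Phagocytic and lipid receptors, grouped here with the CSF1 receptor Csf1r, split into genes that rose strongly and genes that did not pass the test. Of these 6 genes, 2 were called in each genotype. Gpr84, a receptor for medium-chain fatty acids that inflammatory signals are known to induce in myeloid cells, read 5.76, 4.87, 5.39 and 5.82 in naive C57BL/6 brain and 6.91, 7.36, 7.62 and 7.07 after stroke. With the knockout label it read 5.33, 5.50, 5.65 and 5.63 in naive brain and 6.61, 6.69, 6.74 and 6.33 after stroke. Stroke arrays were above naive arrays without overlap in both genotypes. The change was 1.78 ± 0.17 in C57BL/6 (3.43-fold, 95% interval 2.67 to 4.42, adjusted p = 1.8e-05) and 1.06 ± 0.17 under the knockout label (2.09-fold, 1.63 to 2.69, adjusted p = 0.0029). Msr1, the class A scavenger receptor for modified lipoproteins, read 3.40, 3.46, 3.22 and 3.48 in naive C57BL/6 brain and 4.21, 4.44, 5.10 and 4.57 after stroke. Its values under the knockout label were 3.41, 3.40, 3.53 and 3.20 in naive brain and 4.06, 4.29, 4.32 and 4.32 after stroke. Again the groups did not overlap, with changes of 1.19 ± 0.14 (adjusted p = 9.0e-05) and 0.86 ± 0.14 (adjusted p = 0.0019).

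Trem2, the lipid-sensing receptor of phagocytes, did not follow these 2 genes. It read 6.51, 6.45, 6.35 and 6.58 in naive C57BL/6 brain and 6.33, 6.32, 6.31 and 6.59 after stroke. Its change was -0.09 ± 0.08, with a 95% interval from -0.25 to 0.08 (adjusted p = 0.63), so a rise above 0.08 lay outside the interval. On arrays labelled TNF knockout it read 6.32, 6.35, 6.23 and 6.24 in naive brain and 6.20, 6.23, 6.28 and 6.35 after stroke, a change of -0.02 (interval -0.19 to 0.15). The groups overlapped in both genotypes. Axl, a receptor for phosphatidylserine bridged by GAS6, changed by -0.04 (interval -0.19 to 0.10) in C57BL/6 and -0.02 (-0.17 to 0.12) under the knockout label. Clec7a, the beta-glucan receptor Dectin-1, changed by 0.14 (-0.11 to 0.38) and 0.23 (-0.02 to 0.48). Csf1r, the receptor on which microglial survival depends, read 8.33, 8.34, 8.19 and 8.39 in naive C57BL/6 brain and 8.27, 8.63, 8.37 and 8.59 after stroke. In mice labelled TNF knockout it read 8.42, 8.32, 8.35 and 8.12 in naive brain and 7.90, 8.19, 8.19 and 8.09 after stroke. Its changes, 0.15 ± 0.10 and -0.21 ± 0.10, had opposite signs and neither passed the test (adjusted p = 0.43 and 0.57).

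**Figure D2:**
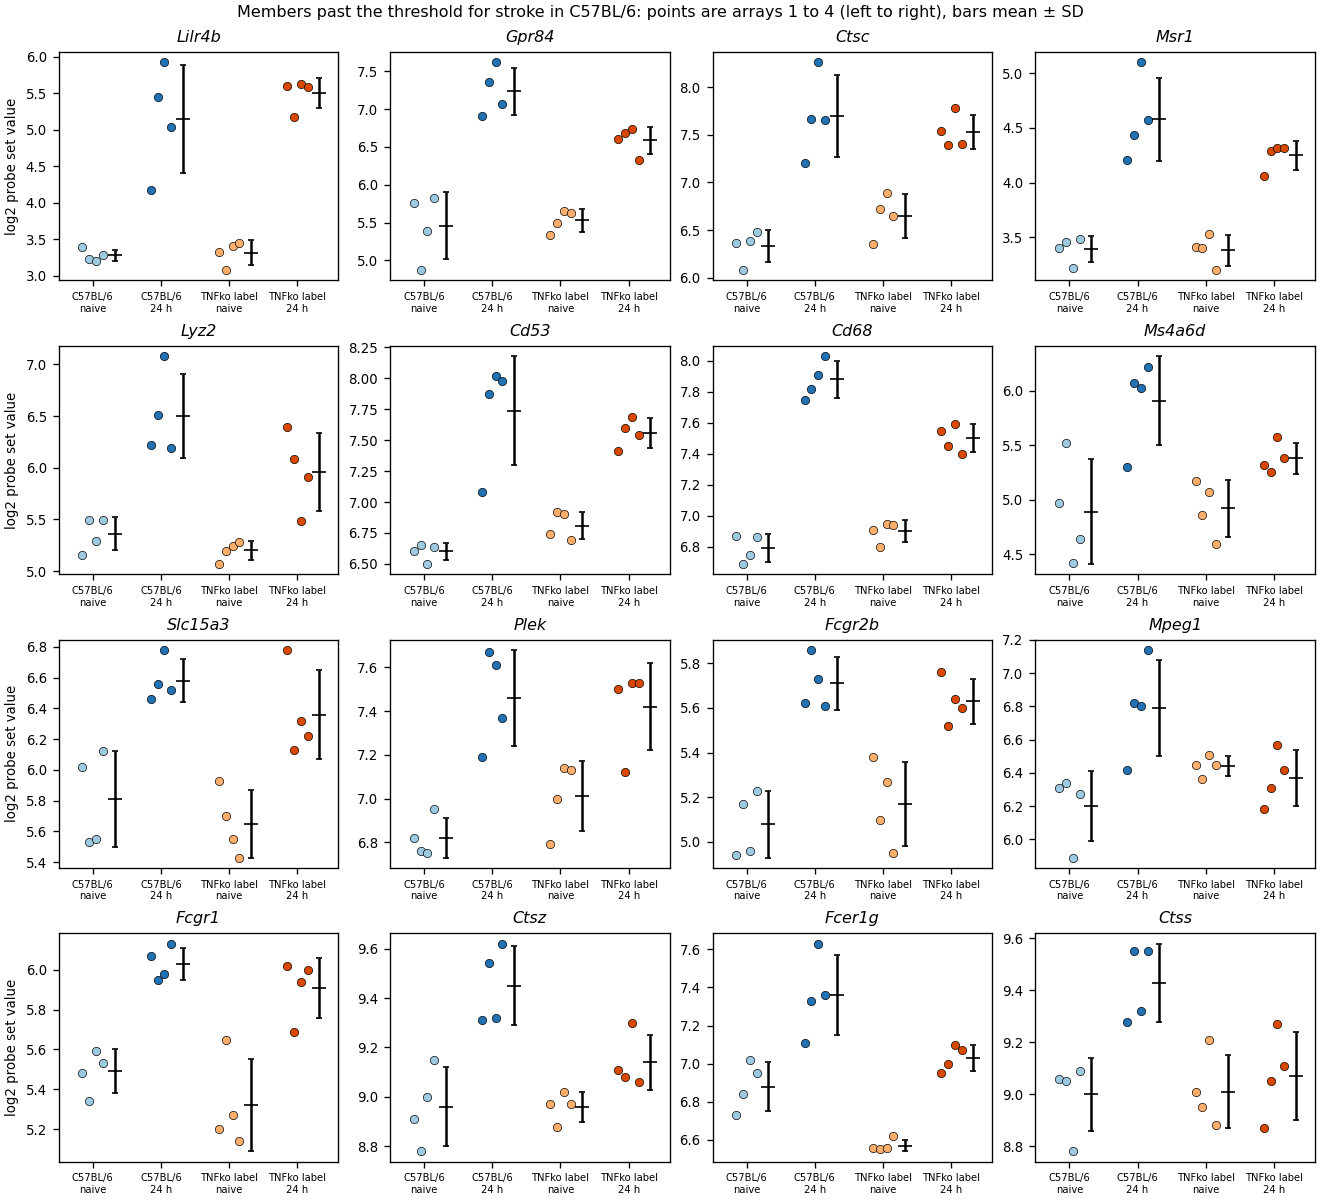
Log2 expression value on each array for the 16 genes called in C57BL/6, in 4 groups of 4 arrays, with points for arrays 1 to 4 from left to right and a bar for the group mean ± SD; each panel has its own axis. Gpr84, Lilr4b and Cd68 separate stroke from naive arrays in both genotypes, while Mpeg1 and Ctss separate them in C57BL/6 and not under the knockout label.

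Of the ITAM adaptors, Fcer1g rose in both genotypes. It read 6.73, 6.84, 7.02 and 6.95 in naive C57BL/6 brain and 7.11, 7.33, 7.63 and 7.36 after stroke. Among arrays with the knockout label it read 6.56, 6.55, 6.56 and 6.62 in naive brain and 6.95, 7.00, 7.10 and 7.07 after stroke. The stroke arrays were higher without overlap in both, by 0.47 ± 0.09 (adjusted p = 0.013) and 0.46 ± 0.09 (adjusted p = 0.023). Tyrobp, the adaptor of TREM2, read 6.13, 6.06, 6.04 and 6.26 in naive C57BL/6 brain and 6.27, 6.46, 6.30 and 6.44 after stroke. It read 5.93, 5.67, 6.14 and 5.89 and then 6.16, 5.98, 6.08 and 6.15 under the knockout label. Its stroke arrays lay above the naive arrays in C57BL/6, yet the change of 0.24 ± 0.09 did not pass the test over all genes (adjusted p = 0.18), nor did 0.18 ± 0.09 under the knockout label (adjusted p = 0.62). With single arrays dropped in turn, Fcer1g still passed in C57BL/6 in 14 of 16 fits and under the knockout label in 10 of 16 (adjusted p up to 0.10).

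The Fc receptors, which bind the constant part of antibodies, rose in both genotypes for 2 of 3. Fcgr1, the high-affinity activating receptor, read 5.48, 5.34, 5.59 and 5.53 in naive C57BL/6 brain and 6.07, 5.95, 5.98 and 6.13 after stroke. Under the knockout label the values were 5.20, 5.65, 5.27 and 5.14 in naive brain and 6.02, 5.69, 5.94 and 6.00 after stroke. It was higher after stroke without overlap in both, by 0.55 ± 0.10 (adjusted p = 0.011) and 0.60 ± 0.10 (adjusted p = 0.006). Fcgr2b, the inhibitory receptor, read 4.94, 5.17, 4.96 and 5.23 in naive C57BL/6 brain and 5.62, 5.86, 5.73 and 5.61 after stroke. With the knockout label it read 5.38, 5.10, 5.27 and 4.95 and then 5.76, 5.52, 5.64 and 5.60. Groups did not overlap in either genotype, with changes of 0.63 ± 0.10 (adjusted p = 0.002) and 0.46 ± 0.10 (adjusted p = 0.036, lost in 6 of the 16 fits without 1 array). Fcgr3, a low-affinity activating receptor, changed by 0.38 (interval 0.05 to 0.71, adjusted p = 0.23) and 0.26 (-0.08 to 0.59).

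Among the lysosomal proteases and their inhibitor, 3 of 6 were called in C57BL/6 and 1 of 6 under the knockout label. Ctsc, the dipeptidyl peptidase that activates granule serine proteases, read 6.36, 6.08, 6.39 and 6.48 in naive C57BL/6 brain and 7.20, 7.67, 8.26 and 7.66 after stroke. On arrays labelled TNF knockout it read 6.35, 6.72, 6.89 and 6.65 in naive brain and 7.54, 7.39, 7.78 and 7.40 after stroke. Both genotypes separated stroke from naive, by 1.37 ± 0.16 (2.58-fold, adjusted p = 0.00012) and 0.88 ± 0.16 (1.83-fold, adjusted p = 0.012). Ctsz, a carboxypeptidase, read 8.91, 8.78, 9.0 and 9.15 in naive C57BL/6 brain and 9.31, 9.54, 9.32 and 9.62 after stroke. It read 8.97, 8.88, 9.02 and 8.97 and then 9.11, 9.08, 9.30 and 9.06 under the knockout label. Stroke arrays stood above naive arrays in both, with a change of 0.49 ± 0.09 in C57BL/6 (adjusted p = 0.011) and one of 0.18 ± 0.09 under the knockout label that did not pass the test (adjusted p = 0.65).

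Ctss, the cathepsin that trims the invariant chain in antigen presentation, read 9.06, 9.05, 8.78 and 9.09 in naive C57BL/6 brain and 9.28, 9.55, 9.32 and 9.55 after stroke. In mice labelled TNF knockout it read 9.01, 8.95, 9.21 and 8.88 in naive brain and 8.87, 9.05, 9.27 and 9.11 after stroke. It was higher after stroke in C57BL/6 alone, by 0.43 ± 0.10 (adjusted p = 0.039), and the call was lost in 8 of 16 such fits with a single array dropped (adjusted p up to 0.12). The change under the knockout label was 0.06 ± 0.10 (adjusted p = 0.95). The widely expressed cathepsins Ctsb and Ctsd changed by 0.18 (interval -0.03 to 0.40) and 0.17 (0.00 to 0.34) in C57BL/6, neither passing the test. Cst7, the inhibitor cystatin F, changed by -0.02 (-0.37 to 0.34) in C57BL/6 and 0.45 (0.09 to 0.80, adjusted p = 0.44) under the knockout label.

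The other lysosomal and antimicrobial proteins had the largest share of called genes among groups of more than 3, with 4 of 6 called in C57BL/6 and 3 of 6 under the knockout label. Cd68, a heavily glycosylated protein of phagocyte lysosomes, read 6.87, 6.69, 6.75 and 6.86 in naive C57BL/6 brain and 7.75, 7.82, 7.91 and 8.03 after stroke. Among arrays with the knockout label it read 6.91, 6.80, 6.95 and 6.94 in naive brain and 7.55, 7.45, 7.59 and 7.40 after stroke. Its 4 groups were tight, and stroke and naive were far apart in both genotypes. Cd68 rose by 1.08 ± 0.08 in C57BL/6 (2.12-fold, 95% interval 1.89 to 2.38, adjusted p = 1.9e-07) and by 0.60 ± 0.08 under the knockout label (1.51-fold, 1.35 to 1.70, adjusted p = 0.00037). Lyz2, lysozyme of myeloid cells, read 5.16, 5.49, 5.29 and 5.49 in naive C57BL/6 brain and 6.22, 6.51, 7.08 and 6.19 after stroke. Its values under the knockout label were 5.07, 5.19, 5.24 and 5.28 and then 6.39, 6.08, 5.48 and 5.91. Groups did not overlap, with changes of 1.14 ± 0.17 (adjusted p = 0.0016) and 0.77 ± 0.17 (adjusted p = 0.045, held in only 4 of the 16 fits without 1 array). Lyz2 has a close paralogue, Lyz1, whose transcripts may share probes.

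Slc15a3, a lysosomal transporter of histidine and peptides, read 6.02, 5.53, 5.55 and 6.12 in naive C57BL/6 brain and 6.46, 6.56, 6.78 and 6.52 after stroke. Under the knockout label it read 5.93, 5.70, 5.55 and 5.43 in naive brain and 6.78, 6.13, 6.32 and 6.22 after stroke. It was higher without overlap in both, by 0.78 ± 0.15 (adjusted p = 0.011) and 0.71 ± 0.15 (adjusted p = 0.029, held in 10 of 16 fits without 1 array). Mpeg1, the pore-forming protein perforin-2, read 6.31, 6.34, 5.89 and 6.27 in naive C57BL/6 brain and 6.42, 6.82, 6.80 and 7.14 after stroke. With the knockout label it read 6.45, 6.36, 6.51 and 6.45 and then 6.18, 6.31, 6.57 and 6.42. The stroke arrays stood apart in C57BL/6 and were mixed with the naive arrays under the knockout label, with changes of 0.59 ± 0.13 (adjusted p = 0.021) and -0.07 ± 0.13 (adjusted p = 0.95). The C57BL/6 call was lost without naive array 3 (adjusted p = 0.076) and without stroke array 2, 3 or 4 (adjusted p = 0.058, 0.062 and 0.070). Gpnmb, a glycoprotein of lysosome-rich phagocytes, changed by 0.22 (interval 0.02 to 0.41) and 0.21 (0.02 to 0.41), and Laptm5, a lysosomal membrane protein of leukocytes, by 0.22 (0.01 to 0.43) and 0.09 (-0.12 to 0.30), none passing the test.

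Neither subunit of the phagocyte NADPH oxidase passed the test with all arrays, no weights and no replicate block. Cybb, its catalytic subunit, read 4.43, 4.22, 4.81 and 4.25 in naive C57BL/6 brain and 4.56, 5.41, 5.78 and 4.79 after stroke. It read 4.39, 4.35, 4.67 and 4.29 and then 5.33, 4.82, 5.39 and 5.11 under the knockout label. Stroke values were higher and widely spread, with changes of 0.71 ± 0.20 (adjusted p = 0.081) and 0.74 ± 0.20 (adjusted p = 0.15). Without C57BL/6 stroke array 1, the lowest of its group, the C57BL/6 change was 0.90 (adjusted p = 0.016). The knockout-label change passed when only those arrays were fitted (adjusted p = 0.016), with array weights (0.047) and without C57BL/6 stroke array 3 (0.046). With replicate number as a block, Cybb passed in C57BL/6 (adjusted p = 0.026) and under the knockout label (0.041). Ncf1, the cytosolic organiser subunit, changed by 0.23 (interval 0.03 to 0.42) and 0.08 (-0.11 to 0.27). The secreted lectin Lgals3, galectin-3, changed by 0.24 (0.03 to 0.44, adjusted p = 0.22) in C57BL/6 and 0.24 (0.04 to 0.44, adjusted p = 0.47) under the knockout label.

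Leukocyte surface proteins held the largest change of all and also genes near 0, with 3 of 9 called in C57BL/6 and 2 of 9 under the knockout label. Lilr4b, an immunoglobulin-like receptor, read 3.39, 3.23, 3.21 and 3.29 in naive C57BL/6 brain and 4.17, 5.45, 5.92 and 5.04 after stroke. On arrays labelled TNF knockout it read 3.33, 3.08, 3.41 and 3.45 in naive brain and 5.60, 5.18, 5.62 and 5.59 after stroke. The groups did not overlap in either genotype, and C57BL/6 stroke array 1 was the stroke array nearest to the naive ones. Its change was 1.86 ± 0.23 (3.64-fold, 95% interval 2.62 to 5.07, adjusted p = 0.00014) in C57BL/6 and 2.18 ± 0.23 (4.53-fold, 3.26 to 6.31, adjusted p = 2.4e-05) under the knockout label. Lilr4b has a near-identical neighbour, Lilrb4a, and probes may read both. Cd53, a leukocyte tetraspanin, read 6.60, 6.65, 6.50 and 6.64 in naive C57BL/6 brain and 7.08, 7.87, 8.02 and 7.98 after stroke. It read 6.74, 6.92, 6.90 and 6.69 and then 7.41, 7.60, 7.69 and 7.54 under the knockout label. It rose without overlap in both, by 1.14 ± 0.15 (adjusted p = 0.00022) and 0.75 ± 0.15 (adjusted p = 0.015).

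Ms4a6d, a membrane protein of macrophages, read 4.97, 5.52, 4.42 and 4.64 in naive C57BL/6 brain and 5.30, 6.07, 6.03 and 6.22 after stroke. In mice labelled TNF knockout it read 5.17, 4.86, 5.07 and 4.59 in naive brain and 5.32, 5.25, 5.58 and 5.38 after stroke. The C57BL/6 groups overlapped, since stroke array 1 lay below naive array 2, and the change was 1.02 ± 0.20 (adjusted p = 0.013). Among arrays with the knockout label the groups did not overlap and the change of 0.46 ± 0.20 did not pass the test (adjusted p = 0.54). Ptprc, the pan-leukocyte phosphatase CD45, read 5.47, 5.51, 5.56 and 5.17 in naive C57BL/6 brain and 5.48, 5.91, 6.31 and 6.07 after stroke. Its changes of 0.52 ± 0.14 in C57BL/6 (adjusted p = 0.074) and 0.35 ± 0.14 under the knockout label (adjusted p = 0.49) did not pass. Without C57BL/6 stroke array 1 the former was 0.67 (adjusted p = 0.007). The tetraspanin Cd9 changed by 0.43 (interval 0.15 to 0.71, adjusted p = 0.12) and 0.18 (-0.10 to 0.47). Cd52, Cd84, Itgax and Ms4a7 changed by 0.23, 0.18, 0.14 and -0.24 in C57BL/6 and by 0.16, -0.04, -0.11 and 0.11 under the knockout label, none called. Itgax encodes the integrin CD11c, and Cd84 a receptor of the SLAM family.

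Of the cytoskeletal and signalling proteins, Plek rose in C57BL/6. Plek encodes pleckstrin, a protein kinase C substrate of blood-derived cells, and read 6.82, 6.76, 6.75 and 6.95 in naive C57BL/6 brain and 7.19, 7.67, 7.61 and 7.37 after stroke. Under the knockout label it read 6.79, 7.00, 7.14 and 7.13 in naive brain and 7.50, 7.12, 7.53 and 7.53 after stroke. The change was 0.64 ± 0.11 in C57BL/6, without overlap (adjusted p = 0.0066), and 0.41 ± 0.11 under the knockout label, where 1 stroke array lay among the naive ones (adjusted p = 0.18). Without stroke array 2 of that label the latter was 0.51 and passed (adjusted p = 0.049). Aif1, the actin-bundling protein IBA1 used to stain microglia, read 5.50, 5.55, 5.38 and 5.72 in naive C57BL/6 brain and 5.52, 5.76, 5.61 and 5.59 after stroke. It read 5.39, 5.44, 5.30 and 5.36 and then 5.32, 5.47, 5.59 and 5.42 under the knockout label. Its values overlapped, and its changes were 0.08 in each genotype, with intervals from -0.09 to 0.26 and from -0.10 to 0.25. Aif1 lies 23.3 kb from Tnf on chromosome 17 (GRCm38.p6).

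The arrays of the stroke groups did not contribute equally. For each gene called in C57BL/6 the deviation of a stroke array from the naive mean of its genotype was taken. The median over these 16 genes was 0.56, 0.94, 1.05 and 0.89 for C57BL/6 stroke arrays 1 to 4. Array 1 was the lowest of its group in 13 of the 16 genes and array 3 the highest in 8. The array weight limma estimated for array 1 over all genes, 0.509, was the lowest of the 16 arrays. The medians under the knockout label were 0.62, 0.45, 0.64 and 0.54, with array 3 highest in 12 of the 16 genes. These 16 genes were chosen by their call in C57BL/6, so the medians of the 2 genotypes are not comparable. Over all 37 genes the medians were 0.27, 0.44, 0.42 and 0.36 in C57BL/6. Under the knockout label they were 0.25, 0.22, 0.35 and 0.10. Without C57BL/6 stroke array 1, 18 genes were called in C57BL/6, adding Cybb and Ptprc, and without stroke array 3, 11 were. All genes moved the same way, from 334 called to 639 without array 1 and to 107 without array 3.

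**Figure D3:**
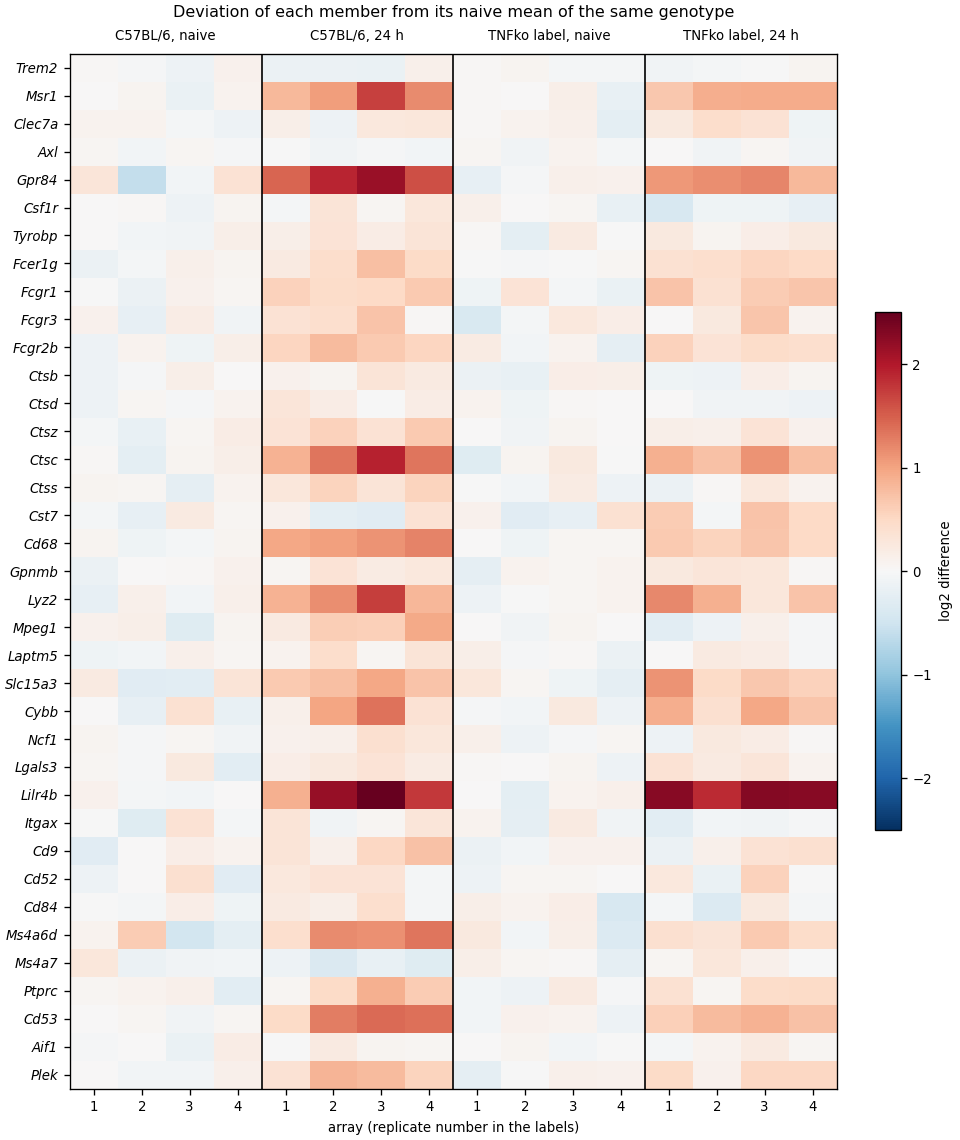
Deviation of each array from the naive mean of its own genotype (log2 units, colour scale at the side) for the 37 genes by role. C57BL/6 stroke array 1 is the lowest of its group in 13 of the 16 genes called in C57BL/6, with a median deviation of 0.56 over them.

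Within the arrays labelled TNF knockout, the prefix could be held constant. Lilr4b rose by 2.33 within KL76 and 2.01 within KL82, Gpr84 by 1.12 and 0.96, Ctsc by 0.89 and 0.87 and Cd68 by 0.66 and 0.54. All 11 called genes were higher after stroke within both prefixes, where each within-prefix value sets 1 array against 3. Fitted with the prefix as a term, 7 of the 11 passed the test, and Fcer1g (adjusted p = 0.15), Ctsc (0.063), Lyz2 (0.071) and Cd53 (0.083) did not. Of all genes, 72 passed in that fit, against 128 without the term.

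Between genotypes in naive brain, 0 of the 37 genes were called, against 0.386% of all genes. The 37 genes were near balance, 17 above and 19 below the C57BL/6 level. At an unadjusted p under 0.05 there were 5, against 16.6% of all genes. The groups did not overlap for 3 of the 37. Fcer1g was lower on the arrays labelled TNF knockout, by -0.31 ± 0.09 (adjusted p = 0.12), and Mpeg1 (0.24 ± 0.13, adjusted p = 0.35) and Cd53 (0.22 ± 0.15, adjusted p = 0.47) were higher, none passing the test. Of all genes, 4.15% were lower and 4.5% higher without overlap. After stroke, 1 of the 37, Cd68, was called lower under the knockout label and 0 higher, against 0.271% of all genes lower and 0.166% higher. Cd68 differed by -0.38 ± 0.08 (0.768 of the C57BL/6 level, interval 0.685 to 0.862, adjusted p = 0.034), and all 4 arrays lay below all 4 C57BL/6 stroke arrays. The call was lost in 6 of the 16 fits without 1 array. Those were the fits without C57BL/6 stroke array 2, 3 or 4 (adjusted p = 0.054, 0.084 and 0.14) and without knockout-label stroke array 1, 2 or 4 (0.063, 0.10 and 0.15). It was also lost when only the stroke arrays were fitted (adjusted p = 0.13).

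After stroke 32 of the 37 genes were lower under the knockout label and the median difference was -0.18, where all genes had a median of -0.01 and 47.4% above 0. Several marker lists also lay mostly below the C57BL/6 level in the same comparison. All 7 oligodendrocyte markers (median -0.33), all 7 endothelial markers (-0.17), 6 of 8 astrocyte markers (-0.14) and 9 of 11 markers of homeostatic microglia (-0.20) were below the C57BL/6 level, while neurons had 5 of 10 below (-0.01), monocytes 4 of 8 (-0.02) and neutrophils 5 of 13 (0.04). Lymphocytes had 7 of 10 below (-0.07), dendritic cells 6 of 9 (-0.00) and border macrophages 5 of 10 (-0.01). The part of these shifts in the members' difference was not tested. In naive brain all 7 oligodendrocyte markers were also below (median -0.15). There 3 of 7 endothelial (0.00), 4 of 8 astrocyte (0.03) and 2 of 11 homeostatic microglia markers (0.09) were below. After stroke the groups did not overlap for 7 of the 37, all lower under the knockout label, against 2.76% of all genes lower and 3.04% higher without overlap. Besides Cd68 these were Gpr84 (-0.65 ± 0.17, adjusted p = 0.12), Csf1r (-0.37 ± 0.10, 0.10), Ctss (-0.35 ± 0.10, 0.17), Fcer1g (-0.33 ± 0.09, 0.15), Ctsz (-0.31 ± 0.09, 0.18) and Tyrobp (-0.27 ± 0.09, 0.23), none passing the test. In naive brain these 7 genes, Cd68 first and in this order, differed by 0.11, 0.07, -0.01, 0.02, -0.31, 0.00 and -0.21. Without C57BL/6 stroke array 1, 5 genes were called lower, Cd68 with Cd53 (-0.40, adjusted p = 0.045), Csf1r (-0.44, 0.047), Fcer1g (-0.41, 0.045) and Mpeg1 (-0.55, 0.038). All genes called in either direction went from 87 to 120 in that fit.

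**Figure D4:**
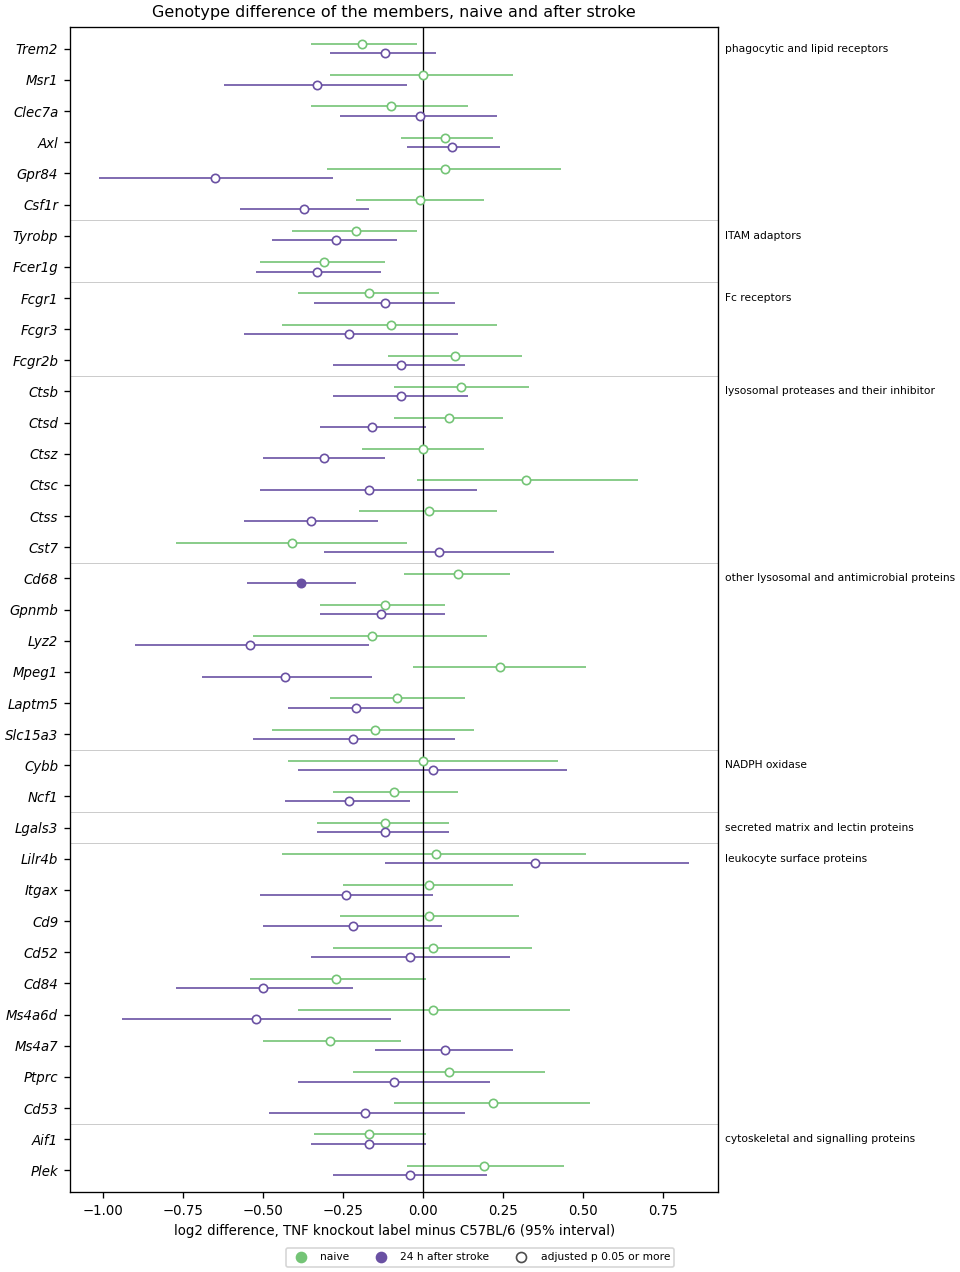
Difference between arrays labelled TNF knockout and C57BL/6 arrays for the 37 genes in naive brain and 24 h after pMCAO (log2 difference with its 95% interval, 4 arrays per group); the filled point has an adjusted p under 0.05. After stroke 32 of the 37 points lie left of 0, and Cd68 at -0.38 is the filled one.

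Whether the stroke change itself differed between genotypes was tested directly. None of the 37 genes was called, as for all genes (0%). The smallest adjusted p was 0.41 among the 37 and 0.081 among all genes. At an unadjusted p under 0.05 there were 9 of the 37, against 7.42% of all genes (1480). Of these, 8 had a lower signed change under the knockout label than in C57BL/6. For Csf1r, at 0.15 in C57BL/6 and -0.21 under the knockout label, it was not smaller in size. The 8 included Cd68 (difference -0.49, unadjusted p = 0.00034), Mpeg1 (-0.67, 0.0015), Gpr84 (-0.72, 0.0088) and Csf1r (-0.36, 0.015). The others were Ctss (-0.37, 0.020), Ctsz (-0.31, 0.029), Ctsc (-0.49, 0.046) and Ctsd (-0.24, 0.049). Ms4a7 differed the other way (0.35, 0.025). Over all 37 genes the difference was below 0 for 28, with a median of -0.17. The calls in C57BL/6 alone therefore do not show a difference between genotypes.

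Lists of further genes of the same pathways were read in the same fit. Of 15 further genes of TREM2 and Fc receptor signalling, 1 was called in C57BL/6 after stroke, the guanine nucleotide exchange factor Vav1 (0.63 ± 0.14, adjusted p = 0.023, held in 12 of 16 fits without 1 array), and 0 under the knockout label. Lpl, lipoprotein lipase, did not pass the test after stroke but was higher on the arrays labelled TNF knockout in naive brain (1.03 ± 0.11, adjusted p = 7.3e-05) and after stroke (0.83 ± 0.11, adjusted p = 0.00077). Of 19 further lysosomal genes, Lamp2, a lysosomal membrane protein, was called in C57BL/6 (0.37 ± 0.08, adjusted p = 0.025, held in 10 of 16 fits without 1 array) and 0 under the knockout label, with list medians of 0.13 and 0.03. Of 14 further genes of the NADPH oxidase and phagosome, 2 rose in C57BL/6, Cyba, the oxidase's small membrane subunit (0.61 ± 0.11, adjusted p = 0.0093), and the scavenger receptor Cd36 (0.42 ± 0.10, adjusted p = 0.042, held in 5 of 16 such fits). None was called under the knockout label, and Cd36 was lower there than in C57BL/6 after stroke (-0.53, adjusted p = 0.019, held in 11 of 16).

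Of 15 myeloid transcription factors, Runx1 rose in C57BL/6 (0.41 ± 0.09, adjusted p = 0.022, held in 12 of 16 such fits) and under the knockout label (0.49 ± 0.09, adjusted p = 0.01), where Cebpd rose too (0.56 ± 0.10, adjusted p = 0.0041). With the prefix as a term Runx1 no longer passed (adjusted p = 0.071). Spi1, which encodes PU.1, changed by 0.23 (adjusted p = 0.22) and Irf8 by 0.36 (adjusted p = 0.14) in C57BL/6. Of 7 genes of CSF1 receptor ligands and signalling, 0 were called after stroke in either genotype, and the ligand Csf1 itself changed by 0.32 ± 0.08 in C57BL/6 (adjusted p = 0.061).

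Markers of cells that could share these genes were read on the same arrays, and their part in the results above was not tested. Of 11 markers of homeostatic microglia, Fcrls, an Fc receptor-like protein of resident microglia, rose in C57BL/6 (0.90 ± 0.17, adjusted p = 0.0083) and the lectin Siglech fell (-0.47 ± 0.11, adjusted p = 0.037, held in 11 of 16 fits without 1 array). With the knockout label Gpr34 fell (-0.49 ± 0.11, adjusted p = 0.046, held in 3 of 16). The mean level of the list ran from 6.68 to 6.77 in naive C57BL/6 brain and from 6.67 to 7.08 after stroke, and from 6.76 to 6.92 and 6.48 to 6.78 under the knockout label. The list's median change was -0.00 in C57BL/6 and -0.15 under the knockout label.

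Of 13 neutrophil markers 0 were called in either genotype, with Cxcr2 at 0.70 and 0.71 (adjusted p = 0.11 and 0.25) and S100a8 at 0.40 and 0.34 (0.17 and 0.54). These 13 markers had a median change of -0.01 in C57BL/6 (7 below 0) and 0.15 under the knockout label (1 below 0). Their mean level ran from 4.18 to 4.35 in naive C57BL/6 brain and 4.16 to 4.46 after stroke, and from 4.12 to 4.19 and 4.26 to 4.50 under the knockout label. Of 8 monocyte markers, Ms4a4c rose in C57BL/6 (0.57 ± 0.14, adjusted p = 0.045, held in 5 of 16 such fits) and under the knockout label (0.68 ± 0.14, adjusted p = 0.029, held in 10 of 16), and the list medians were 0.25 and 0.29. Their mean level was 4.70 to 4.88 in naive C57BL/6 brain, 4.86 to 5.28 after stroke, and 4.70 to 4.82 and 4.89 to 5.22 under the knockout label. Ccr2, the chemokine receptor of inflammatory monocytes, changed by 0.29 (adjusted p = 0.22) and 0.26 (adjusted p = 0.56). Of 10 markers of border macrophages, F13a1, a transglutaminase subunit, rose in C57BL/6 (0.67 ± 0.11, adjusted p = 0.0039) and 0 were called under the knockout label. The median change of the 10 was 0.01 in C57BL/6 (4 below 0) and 0.12 under the knockout label (1 below 0). Of 9 dendritic cell markers the only call was the shared gene Siglech, and of 10 lymphocyte markers 0 were called.

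The labelled tissue was checked against its markers, and the mean level of 10 neuronal markers ran from 10.55 to 10.70 on all arrays, with 0 of the 10 called after stroke. Of 8 astrocyte markers, Gfap, the intermediate filament of reactive astrocytes, rose by 0.72 ± 0.15 in C57BL/6 (adjusted p = 0.015, held in 13 of 16 fits without 1 array) and 0.83 ± 0.15 under the knockout label (adjusted p = 0.007, but 0.084 with the prefix as a term). The 8 astrocyte markers had a median change of 0.11 in C57BL/6 (2 below 0) and -0.04 under the knockout label (4 below 0). After stroke the oligodendrocyte genes Cnp (-0.46, adjusted p = 0.005) and Olig1 (-0.44, adjusted p = 0.024, held in 11 of 16 fits without 1 array) and the endothelial gene Cldn5 (-0.54, adjusted p = 0.04, held in 5 of 16 fits without 1 array) were lower under the knockout label than in C57BL/6.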

How the data were processed

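Whole-brain total RNA was labelled with biotin and read on Affymetrix Mouse Gene 1.0 ST arrays. The authors deposited log2 expression values for 28944 probe sets on 16 arrays. Per the submitters' processing notes GCOS, Partek, RMA and GCRMA were used, in an order not given in the sources used here. Array number limits precision. Probe sets with 1 symbol in GEO's platform annotation (21789, against 1621 with several and 5534 with none) gave 19938 genes, and for 999 genes with several the highest mean was kept. limma 3.58.1 (R 4.3.3) fitted 4 group means to all arrays (12 residual and 7.52 prior degrees of freedom). Tests were moderated and two-sided, with Benjamini-Hochberg adjustment over all genes and a threshold of 0.05. The script was tested on simulated data. The members and lists were chosen with earlier results of these data known, and members were left out of the pathway lists. Every member called in a comparison is given in full. Of each list, up to 4 genes with the smallest p could be named. In all, 166 of 185 list memberships were found. Promoters and positions are from RefSeq (GRCm38.p6). No 2 arrays held identical values. Alternatives changed normalization, filter, probe set rule, variance model, array weights, arrays fitted, threshold, replicate block and prefix term.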

Additional observations from a re-analysis of the deposited data

Results flagged for a closer look

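Within 10 of 148 groups of 4 arrays, 1 array stood apart from the other 3, the ratio of its gap to the group's range exceeding Dixon's critical value, which chance alone gives in about 1 group in 20. The ratio takes no account of the size of the gap, which for Fcer1g is small. In C57BL/6 stroke brain, Cd53 read 7.08 on array 1 against 7.87 to 8.02 on the others, and Trem2 read 6.59 on array 4 against 6.31 to 6.33. In naive C57BL/6 brain, array 3 was low for Ctss (8.78 against 9.05 to 9.09) and for Mpeg1 (5.89 against 6.27 to 6.34). Among stroke arrays labelled TNF knockout, array 2 was low for Lilr4b (5.18 against 5.59 to 5.62) and for Plek (7.12 against 7.50 to 7.53), and array 1 was low for Msr1 (4.06 against 4.29 to 4.32). Among naive arrays with that label, array 4 was high for Fcer1g (6.62 against 6.55 to 6.56) and low for Cd84 (3.70 against 4.19 to 4.27), and array 1 was low for Gpnmb (4.89 against 5.17 to 5.20).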

How the results depend on the processing

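No called change reversed its sign under any setting. Among all 37 members, some uncalled changes did. These were 1 gene for stroke in C57BL/6 (0.02 or less in size) and 6 under the knockout label (0.08 or less). Between genotypes they were 12 in naive brain (0.10 or less) and 7 after stroke (0.17 or less). For the difference of the changes they were 11 (0.32 or less). Apart from the fits that left out 1 array, 145 of 157 values of the C57BL/6 calls, 91 of 108 of the knockout-label calls and 7 of 9 of the Cd68 difference stayed past the threshold. At a threshold of 0.01, 9 genes were called in C57BL/6, 5 under the knockout label and 0 between genotypes after stroke. The prefix term left 7 calls under the knockout label, with 72 over all genes against 128. Between genotypes after stroke the count was 2 with a trended and robust variance (Csf1r added), 0 with only the groups compared (which left 11 calls in C57BL/6 and 11 under the knockout label) and 2 with a replicate block (Cd84 added, adjusted p = 0.028). In that order, 162, 46 and 120 of all genes were called between genotypes after stroke, against 87. Leaving out 1 array gave 11 to 18 calls in C57BL/6, 6 to 12 under the knockout label and 0 to 5 between genotypes after stroke. Over all genes the calls ran from 107 to 639, from 69 to 145 and from 47 to 120. The count under the knockout label was 7 without any of the 4 naive arrays or stroke array 4 of that label, and 6 without its stroke array 3. All genes called there fell from 128 to 72, 70, 96 and 108 without naive array 1, 2, 3 or 4. Without stroke array 3 or 4 they fell to 71 and 69. Between genotypes after stroke the count of members was 2 without naive C57BL/6 array 2, with 86 over all genes. The labels tie the replicate numbers to no shared animal or batch, and in no pair of groups did all 4 same-number correlations exceed 0.1, so they were not taken as pairs, with correlations of deviations from -0.07 to 0.34 for the same number and -0.32 to 0.24 for different numbers. Between naive and stroke arrays, 2 of 8 arrays in C57BL/6 and 4 of 8 under the knockout label correlated best with their own number. Across genotypes it was 6 of 8 between the naive groups and 6 of 8 between the stroke groups. It was 8 of 8 for naive knockout-label with C57BL/6 stroke arrays, and 2 of 8 for naive C57BL/6 with knockout-label stroke arrays. The block gave 19 calls in C57BL/6, adding Cd9 (adjusted p = 0.015), Cybb (0.026) and Ptprc (0.04), with 559 over all genes against 334. It gave 10 under the knockout label, adding Cybb (0.041) and losing Fcgr2b (0.061) and Lyz2 (0.093), with 140 over all genes against 128. Between naive genotypes and for the difference of the stroke changes, all settings gave 0. The causes were not tested. The deposited table gives no detection call, so dim members such as Lilr4b and Msr1 in naive brain may lie near background. With the dimmest genes left out, 26 of the 37 were tested, with 14 called in C57BL/6 and 9 under the knockout label. The 14 included Ptprc (adjusted p = 0.039), which was not called in the main fit. Over all genes kept, 536 were called in C57BL/6, against 334 in the main fit. Under the knockout label 115 were, against 128.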
